A study of Mus with 12 samples.

Results

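Chemokines and their receptors were measured in the whole uterus of pregnant mice on 4 days of gestation. The members were every row of the deposited gene tables that carries a chemokine or chemokine receptor symbol (Ccl, Cxcl, Xcl, Cx3cl, Ccr, Cxcr, Xcr, Cx3cr or Ackr and a number) and at least 1 Ensembl transcript. There were 61 such rows among 87235 in the table of the implantation stage (39 ligands, 18 receptors and 4 atypical receptors) and 58 among 40787 in the table of the labor stage (36 ligands, 18 receptors and 4 atypical receptors), and 58 names were in both tables. Ccl21d, Cxcl15 and Ccl26 were in the implantation table alone.

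The study compared RNA from the uteri of 12 pregnant ICR mice, an outbred strain, 8 weeks old per the labels with no treatment or engineered allele named there, and with 1 mouse per library and 3 libraries per day. The days are named by embryonic age, counted from mating. E0.5 and E4.5 stood for the implantation stage, and E15.5 and E18.5 for the labor stage. The question was how uterine expression differs between the days of each stage, so E0.5 was compared with E4.5 and E18.5 with E15.5.

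Chemokines are small secreted proteins that guide leukocytes along gradients, and they are named by the spacing of their first cysteines (CC, CXC, XC and CX3C). They act on receptors that couple to inhibitory G proteins, while the atypical receptors bind ligands without that coupling and clear or present them. In the uterus they are known for bringing in neutrophils and macrophages after mating, for the traffic of natural killer (NK) cells, T cells and dendritic cells at the site of implantation, and for the entry of leukocytes into the myometrium and cervix around birth. In a whole tissue, fewer cells of a type and less RNA per cell cannot be told apart.

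Values are FPKM (fragments per kilobase of transcript and per unit of mapped depth), and the tables of the stages were assembled and normalized separately. A member is called when its absolute log2 fold change is at least 1 with an unadjusted p under 0.05, the criterion of the study, and the adjusted p is Benjamini-Hochberg's over all tested rows. At the implantation stage p comes from edgeR's quasi-likelihood test on counts, and at the labor stage from limma on log2(FPKM + 0.1), where the fold change of a low gene is understated. The total count of a library ran from 58020989 to 70906881 at the implantation stage, of which the members held 0.0532% to 0.0593% at E0.5 and 0.0308% to 0.0392% at E4.5. The depth of the labor libraries is not known from their FPKM.

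Some libraries stood apart. The summed FPKM of 7 ovary markers was 1347 in replicate 3 of E4.5 and 4.29 to 6.44 in the other 5 libraries of the stage, the sum of 2 oviduct markers was 79.4 against 3.63 to 14.8, and that of 5 smooth muscle markers was 172 against 656 to 978. At the labor stage, replicate 1 of E15.5 had the highest sums of the NK cell and eosinophil markers. The sum of 4 yolk sac markers was 10.1, 141 and 847 FPKM in the E15.5 libraries and 192 to 602 FPKM at E18.5. Markers of the epithelium, stroma and smooth muscle were above 0 in all 12 libraries. Several results that rest on replicate 3 of E4.5 or replicate 1 of E15.5 are given with and without that library.

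At the implantation stage, every member called was higher at E0.5, and most of these were ligands. Of the 45 members with a mean of at least 0.1 FPKM, 11 were higher at E0.5 than at E4.5 (9 of 29 ligands and 2 of 16 receptors) and 0 were lower, where 12.2% of all 59732 tested rows were called, 6.37% higher and 5.82% lower. The median log2 fold change was 0.64 over the 45 members, 1.08 over the ligands and 0.07 over the receptors, and -0.01 over all tested rows. Values of the groups did not overlap for 17 members in the direction of E0.5 and for 2 in that of E4.5, against 25.2% of all rows, 12.8% toward E0.5 and 12.5% toward E4.5. Past the adjusted p were 2 members, Ccl28 and Cx3cl1, where 1.2% of all rows were. By DESeq2, 12 members were higher and 1, Cxcl14, was lower, where it called 14.5% of all rows. Without replicate 3 of E4.5, 13 were higher, among them Ccl17, Ccl21a and Ccl24, which were not called with all libraries. In that fit 2 (Cxcl14 and the dendritic cell receptor Xcr1) were lower, and 5 members were past the adjusted p. Of all rows, 14.1% were then called and 5.35% were past the adjusted p. The summed level of the ligands was 81.1 to 94.4 FPKM at E0.5 and 60.7 to 77.9 FPKM at E4.5, and that of the receptors was 18.3 to 20.8 FPKM and 18.1 to 22.8 FPKM.

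**Figure D1:**
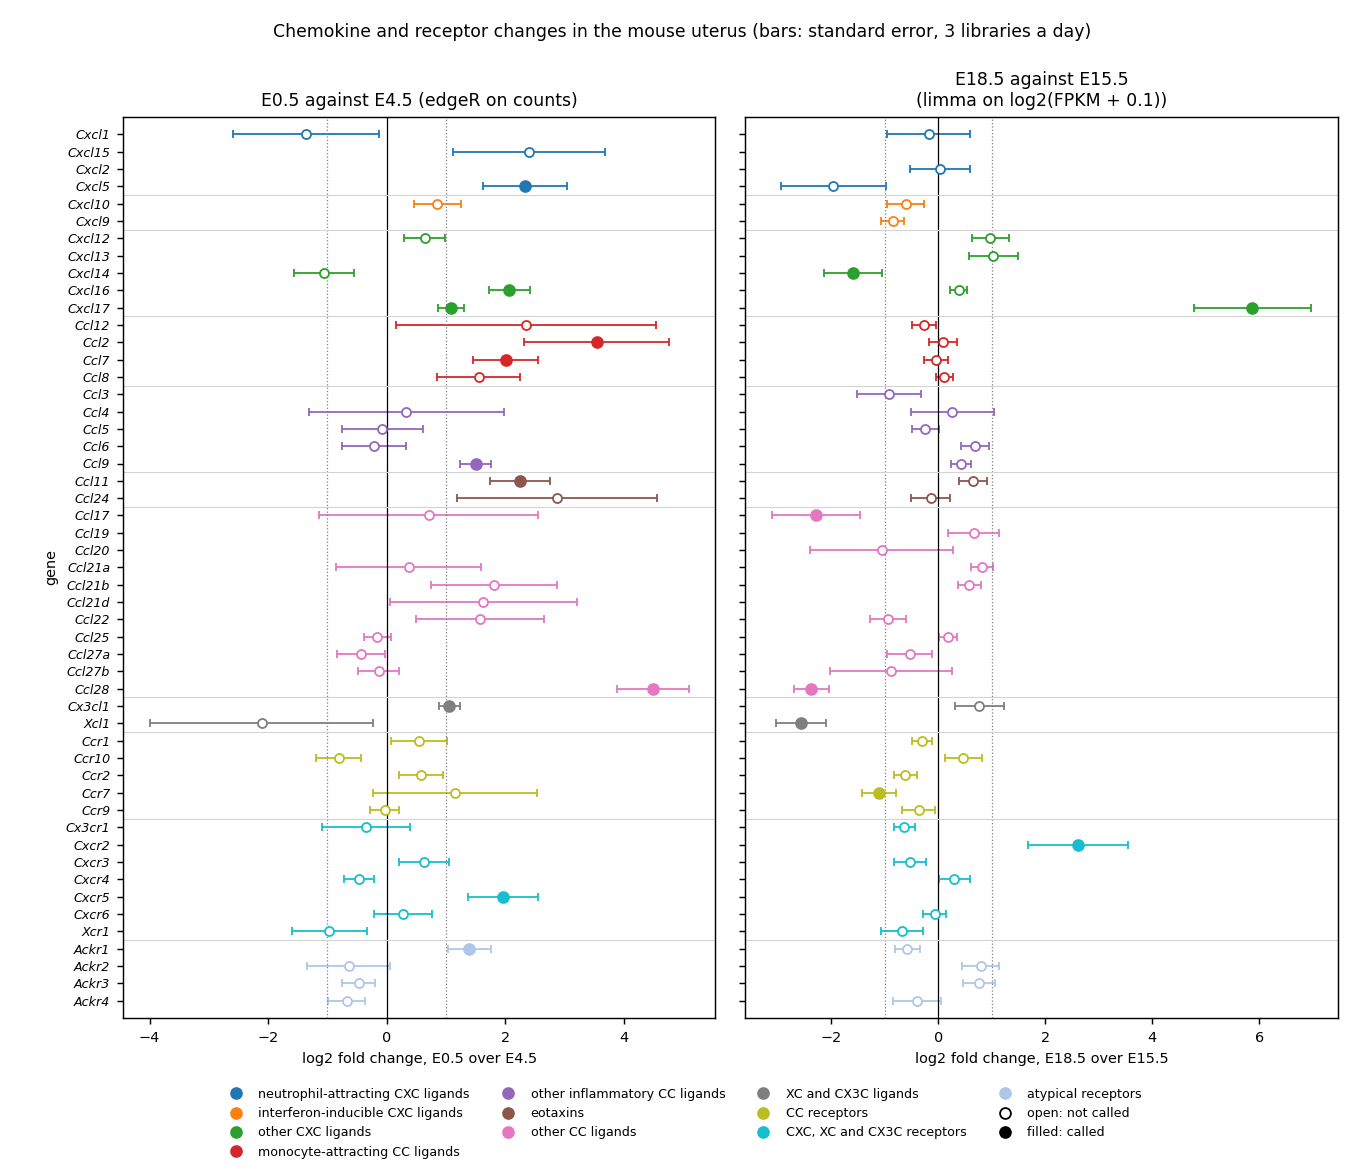
Log2 fold change of the tested members reported here with the standard error (bars), at the implantation stage on the left (edgeR on counts) and at the labor stage on the right (limma on log2(FPKM + 0.1)), grouped and coloured by role. Filled points are called: 11 on the left, all above 0, and 7 on the right, 2 above and 5 below 0, with dotted lines at a log2 fold change of 1 in either direction.

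Ccl28 showed the largest fitted change among the members at E0.5. Ccl28 is a chemokine of mucosal epithelia that draws antibody-secreting cells through Ccr10 and also binds Ccr3. Its row lies on chromosome 13 from 119623819 to 119654359 on the plus strand (GRCm38, with which the positions of all 61 member rows match). It had 9.69, 12 and 11.4 FPKM at E0.5 against 0.257, 0.253 and 1.0 at E4.5. The groups were far apart, and among the E4.5 libraries replicate 3 was the highest. The log2 fold change was 4.49 (standard error 0.60, adjusted p = 0.031), a 22.4-fold difference. It was 5.41 without replicate 3 of E4.5. Its receptor Ccr10 went the other way without being called, with 0.593, 0.439 and 0.623 FPKM at E0.5 against 1.22, 0.697 and 1.01 at E4.5, groups that did not overlap. Its log2 fold change was -0.81 (standard error 0.38, adjusted p = 0.328). The Ccr10 row overlaps Cntnap1 on the opposite strand, and whether counting used the strand is not given in the sources used here.

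The ligands that are held in the membrane were higher at E0.5 as well. Cx3cl1 (fractalkine), the ligand of Cx3cr1, had 5.23, 5.21 and 5.54 FPKM at E0.5 against 2.44, 2.93 and 2.36 at E4.5. The values within a day were close together, and the log2 fold change was 1.06 (standard error 0.17, adjusted p = 0.0474). Without replicate 3 of E4.5 it was 0.98, under the minimum of 1. Cxcl16, the ligand of Cxcr6, had 5.86, 6.63 and 10.3 FPKM at E0.5 against 2.29, 1.89 and 1.24 at E4.5. It was a 4.2-fold difference, with a fitted log2 change of 2.07 (standard error 0.35, adjusted p = 0.0507), and it was called with each library left out. Its row overlaps the start of Zmynd15 on the other strand. The receptors of these ligands were not called. Cx3cr1 had a log2 fold change of -0.35 (standard error 0.74), on a row that spans several other genes, and Cxcr6, whose row overlaps Fyco1, had 0.28 (standard error 0.49).

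The monocyte-attracting ligands and an eotaxin lie next to each other on chromosome 11. The cluster of Ccl2, Ccl7, Ccl11, Ccl12, Ccl8 and Ccl1 runs from 82035571 to 82305690 (GRCm38). Of its 5 tested members 3 were called higher at E0.5, 0 were lower, and all 5 fold changes were above 0, with a median log2 fold change of 2.25. Ccl2, which recruits monocytes through Ccr2, had 1.11, 1.14 and 0.24 FPKM at E0.5 against 0.0772, 0.121 and 0 at E4.5, from 230 counts over the E0.5 libraries and 20 over the E4.5 libraries. Replicate 3 of E0.5 was below the other E0.5 libraries. The log2 fold change of Ccl2 was 3.54 (standard error 1.23, adjusted p = 0.218). It was called in 3 of the 6 fits that leave out a library, with values from 2.96 to 4.24: the call was lost without replicate 1 or replicate 2 of E0.5 and without replicate 1 of E4.5.

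Ccl7, another ligand of Ccr2, had 1.78, 1.72 and 0.75 FPKM at E0.5 against 0.227, 0.322 and 0.495 at E4.5. The groups did not overlap, and the log2 fold change was 2.0 (standard error 0.55, adjusted p = 0.137). Ccl11 (eotaxin), which attracts eosinophils through Ccr3, had 0.852, 1.48 and 2.58 FPKM at E0.5 against 0.311, 0.35 and 0.37 at E4.5. It varied 3-fold among the E0.5 libraries and little among those of E4.5, and its log2 fold change was 2.25 (standard error 0.50, adjusted p = 0.0898). Both were called with each library left out. Ccl8 and Ccl12 were not called, at log2 fold changes of 1.55 (adjusted p = 0.32) and 2.35 (adjusted p = 0.621), and Ccl1 was at 0 in all 6 libraries. Ccl8 was called higher at E0.5 by DESeq2, by limma on log2(FPKM + 0.1) and with the replicate number as a block. Ccl24, the other eotaxin, lies on another chromosome and was not called (log2 fold change 2.88, adjusted p = 0.42). Its only counts at E4.5 were 12 in replicate 3, and without that library it was called higher at E0.5.

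**Figure D2:**
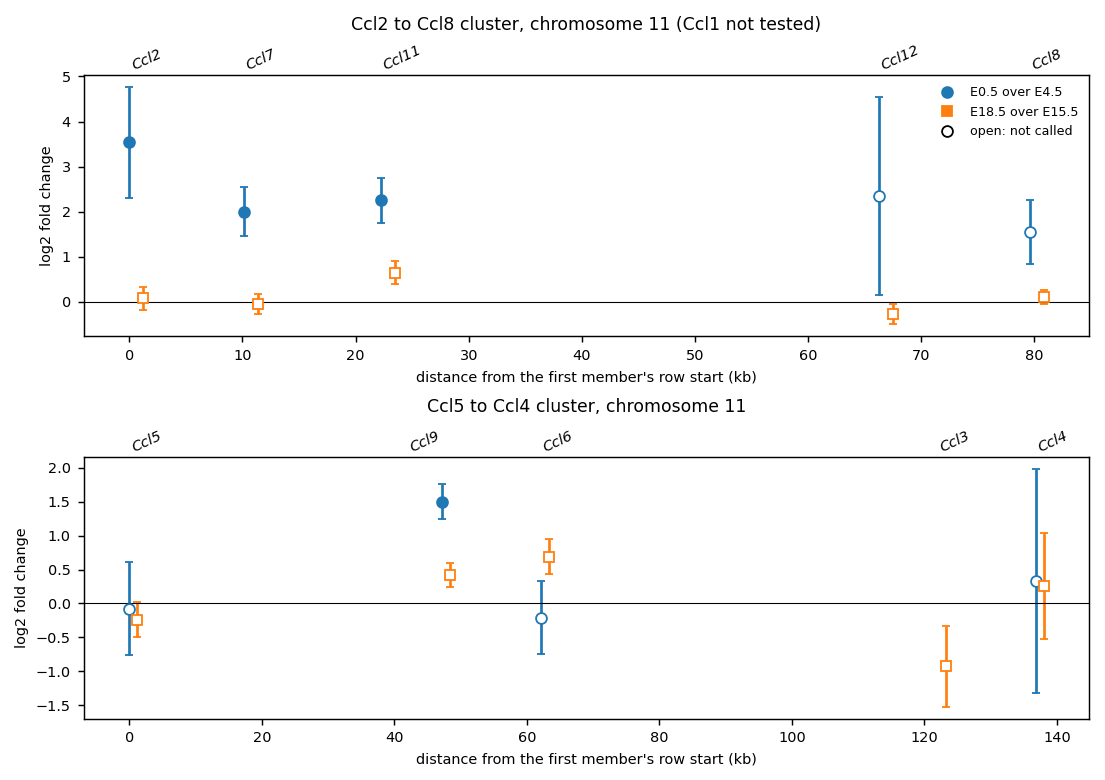
Log2 fold change with its standard error (bars) against distance along chromosome 11, in kilobases from the start of the first row, for the cluster of Ccl2 to Ccl8 (upper panel) and that of Ccl5 to Ccl4 (lower panel). Circles are E0.5 over E4.5 and squares E18.5 over E15.5, filled where called. In the upper panel the 5 circles sit between 1.55 and 3.54 and the 5 squares between -0.28 and 0.65, and in the lower panel only Ccl9 is called.

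Of the inflammatory CC ligands in a second cluster on chromosome 11 (Ccl3, Ccl4, Ccl5, Ccl6 and Ccl9), only Ccl9 was called among the 4 tested. Ccl9, a mouse ligand of Ccr1, had 1.7, 1.36 and 1.93 FPKM at E0.5 against 0.509, 0.611 and 0.661 at E4.5. All E0.5 values were above all E4.5 values, the log2 fold change was 1.5 (standard error 0.26, adjusted p = 0.0531), and it was called with each library left out. The log2 fold changes of Ccl4, Ccl5 and Ccl6 lay between -0.21 and 0.33, and Ccl3 was below the filter. The row of Ccl6 overlaps E230016K23Rik on the opposite strand. A row without an Ensembl transcript, named for Slfn14 and Heatr9, spans this whole cluster, so reads within it may have been assigned either way.

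Among the CXC ligands that attract neutrophils through Cxcr2, Cxcl5 was called and the tested Cxcl1 and Cxcl15 were not. Cxcl5 had 1.97, 2.7 and 0.977 FPKM at E0.5 against 0.31, 0.69 and 0.117 at E4.5. The lowest E0.5 library was above the highest E4.5 library, and the log2 fold change was 2.33 (standard error 0.70, adjusted p = 0.166). Cxcl15 had 2.4 (adjusted p = 0.383) and Cxcl1 -1.37 (adjusted p = 0.61). Of the 94 counts of Cxcl1 at E4.5, 76 were in replicate 3. With single libraries left out, the log2 fold change of Cxcl1 ran from -2.11 to 0.38. Cxcl2 and Cxcl3 were below the filter. The receptor Cxcr2 was also below it, with 5, 64 and 12 counts in the E0.5 libraries, most of them in replicate 2, and 0 in those of E4.5. Of the interferon-inducible ligands of Cxcr3, only Cxcl10 passed the filter, and it was not called (log2 fold change 0.86, adjusted p = 0.323).

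The row named for Cxcl17, a chemokine of mucosal surfaces, also holds Lipe (hormone-sensitive lipase) and runs from 25379527 to 25412886 on chromosome 7. The parts of these genes in its value cannot be told apart. It had 5.91, 7.17 and 7.04 FPKM at E0.5 against 2.81, 2.62 and 4.18 at E4.5. The groups did not overlap, and the log2 fold change was 1.08 (standard error 0.22, adjusted p = 0.0719). It fell under the minimum of 1 without replicate 2 of E4.5 (0.95).

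Cxcl14 and Cxcl12, among the more abundant ligands of the stage, were not called. Cxcl14, a ligand made by epithelium and stroma, had 27.6, 8.5 and 16.8 FPKM at E0.5 against 51.9, 37.1 and 20.4 at E4.5. The groups overlapped, with replicate 3 the lowest of the E4.5 libraries, and the log2 fold change was -1.06 (standard error 0.51, adjusted p = 0.336). Without that library it was -1.37, and Cxcl14 was then called lower at E0.5, as it was without replicate 1 of E0.5 (-1.51). Cxcl12, the ligand of Cxcr4 and Ackr3 that keeps leukocytes and progenitors in tissues, had 10.6, 12.4 and 4.92 FPKM at E0.5 against 6.76, 5.52 and 5.63 at E4.5. Replicate 3 of E0.5 was below every E4.5 library, and the log2 fold change was 0.65 (standard error 0.35, adjusted p = 0.384). Cxcr4 had 4.59, 3.64 and 4.45 FPKM at E0.5 against 6.94, 4.33 and 6.25 at E4.5, with a fitted log2 change of -0.46 (standard error 0.26, adjusted p = 0.392).

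Ccl21a, which guides T cells and dendritic cells that carry Ccr7, turned on a single library. It had 8.01, 5.31 and 6.28 FPKM at E0.5 against 0.971, 0.243 and 14.5 at E4.5. Replicate 3 of E4.5, the library with high ovary markers, was above every E0.5 library while the other E4.5 libraries were below all of them. The log2 fold change was 0.37 (standard error 1.22, adjusted p = 0.904) with all libraries and 3.36 without replicate 3. The part of ovarian tissue in this value was not tested. Ccl21a, Ccl21b and Ccl21d are near-identical copies, so the split of reads among them is uncertain.

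Among the receptors, Cxcr5 and the Ackr1 row were called. Cxcr5, the receptor for Cxcl13 on B cells and follicular helper T cells, was low, with 0.286, 0.198 and 0.228 FPKM at E0.5 against 0.0266, 0.0662 and 0.0836 at E4.5, from 198 and 51 counts. The groups did not overlap, and the log2 fold change was 1.96 (standard error 0.59, adjusted p = 0.162). Its row overlaps Bcl9l. The row of Ackr1, an atypical receptor of venules and red cells that presents and takes up inflammatory chemokines, is merged with Cadm3. It had 0.491, 0.569 and 0.633 FPKM at E0.5 against 0.238, 0.275 and 0.131 at E4.5. No E4.5 library reached an E0.5 one, and the log2 fold change was 1.4 (standard error 0.36, adjusted p = 0.12). Both were called with each library left out, and neither was called by limma on log2(FPKM + 0.1).

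The other receptors did not pass the test. The 6 tested CC receptors ran from -0.81 (Ccr10) to 1.15 (Ccr7, which takes T cells and dendritic cells to lymph nodes) on the log2 scale, with 0 called. Ackr3, which clears Cxcl12, had a log2 fold change of -0.47 (adjusted p = 0.427), and Ackr4, which clears Ccl19, Ccl21 and Ccl25, had -0.68 (adjusted p = 0.327) with groups that did not overlap. The 30 tested members that were neither called nor at 5 FPKM had means of 0.130 to 4.10 FPKM and log2 fold changes of -2.11 to 2.88. Below the filter were 16 members (Ccl1, Ccl3, Ccl19, Ccl20, Ccl26, Cxcl2, Cxcl3, Cxcl9, Cxcl11, Cxcl13, Ccr3, Ccr4, Ccr6, Ccr8, Cxcr1 and Cxcr2), and of these Ccl1 and Ccl26 had no count in any library.

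Marker lists of several cell types moved with the day at the implantation stage. Of 5 epithelial markers, 3 (Krt8, Krt19 and Cdh1) were called higher at E0.5, and their summed level was 215 to 255 FPKM at E0.5 and 72.2 to 150 FPKM at E4.5. Of 10 macrophage and monocyte markers, 3 (Csf1r, Mrc1 and Adgre1) were called higher, with sums of 90.3 to 105 FPKM and 50.1 to 70.4 FPKM. The 5 markers shared by leukocytes did not rise together: 4 had a negative log2 fold change and 1 (Laptm5) was called higher. Their median was -0.25, and their sums overlapped between the days. Among 6 dendritic cell markers 5 were tested, 3 were negative and 1 (Itgae) was called higher. The median of the dendritic cell markers was -0.78, and their sums overlapped too. Of 10 neutrophil markers, 6 were tested, with a median log2 fold change of -0.06. Of these, 3 (Ltf, Ly6g and Csf3r) were called higher, and the other 3, Mmp8 (-2.14), Camp (-2.19) and S100a8 (-2.0), were negative and not called. Retnlg, S100a9 and Stfa2l1 were at 0 in all 6 libraries, and without Ltf, which the uterine epithelium also makes under estrogen, the sums were 0.984 to 2.97 FPKM and 1.12 to 2.12 FPKM. Of 7 eosinophil markers, 1 (Alox15) was called higher. Of 5 platelet markers, 1 (Pf4) was called higher and 4 were positive, with sums of 6.46 to 10.2 FPKM and 2.43 to 5.52 FPKM. Of 4 B cell markers, the 2 tested were positive and 0 were called, with sums of 0.492 to 1.47 FPKM and 0.231 to 0.852 FPKM. All 4 endothelial markers had a negative log2 fold change, and 2 of them, Emcn (-1.12) and Cdh5 (-1.48), were called lower at E0.5, with sums of 18.3 to 21 FPKM at E0.5 and 25.5 to 51.5 FPKM at E4.5. All 7 NK cell markers were negative as well, with 0 called, a median of -1.03 and sums of 3.16 to 11.7 FPKM and 1.9 to 56.2 FPKM. The lowest NK cell sum at E4.5 was that of replicate 3, while replicates 1 and 2 had 56.2 and 19.9 FPKM. The part of these marker lists in the chemokine values was not tested.

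**Figure D3:**
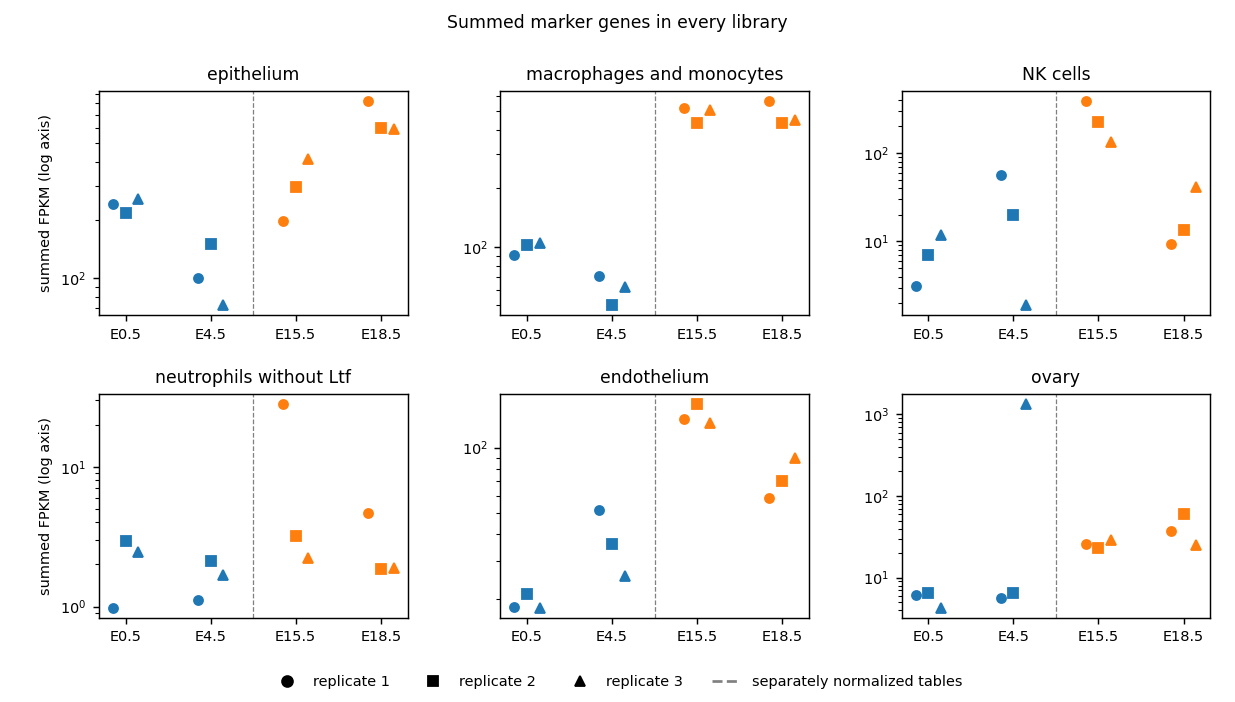
Summed FPKM of marker genes in every library on a log axis, for epithelium, macrophages and monocytes, NK cells, neutrophils without Ltf, endothelium and ovary, with the replicates as circle, square and triangle and a dashed line between the separately normalized tables. Replicate 3 of E4.5 stands at 1347 FPKM for the ovary markers, and the NK cell markers at E18.5 (9.45 to 41.6 FPKM) are all below those at E15.5 (134 to 383 FPKM).

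At the labor stage the members called went in both directions. Of 49 tested members, 7 were called: 2 were higher at E18.5 (Cxcl17 and Cxcr2) and 5 were lower (Ccl28, Cxcl14, Ccl17, Xcl1 and Ccr7). Of all 30928 tested rows 6.05% were called, 3.11% higher and 2.93% lower. The median log2 fold change was -0.18 over the members and 0.02 over all tested rows, with -0.04 over the 33 ligands and -0.39 over the 16 receptors. Groups did not overlap for 9 members in the direction of E18.5 and for 11 in that of E15.5, against 19.9% of all rows, 10.9% in the direction of E18.5 and 8.96% in that of E15.5. By limma 0 members passed the adjusted p with or without the intensity trend, where 0.0259% of all rows did, and 19 had an unadjusted p under 0.05 with no fold change minimum, as did 12.2% of all rows. Without replicate 1 of E15.5, 5 members and 5.01% of all rows were called: Ccl28, Cxcl17, Cxcr2 and Xcl1, and in addition Cxcl13, which draws B cells. Of these 3 were higher and 2 lower, and the median over the members was then 0.05, as it was also above 0 (0.08) over the 29 members with a mean of at least 1 FPKM. Without replicate 1 of E18.5, 4 members and 4.97% of all rows were called. The summed level of the ligands was 363 to 516 FPKM at E18.5 and 271 to 396 FPKM at E15.5.

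Cxcl17 showed the largest fitted difference among the members of the labor stage. It had a row of its own in this table, with 143, 86 and 74.3 FPKM at E18.5 against 0.281, 1.06 and 10.3 at E15.5. All E18.5 values were above all E15.5 values, and the E15.5 libraries themselves differed over 30-fold. The log2 fold change was 5.87 (standard error 1.1, adjusted p = 0.141), a 58.5-fold difference on this scale. It was called with each library left out, at 4.81 to 7.19.

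Ccl28 was lower at E18.5, the reverse of its direction at the implantation stage. It had 5.61, 6.05 and 9.16 FPKM at E18.5 against 50.9, 39.6 and 22.5 at E15.5. The groups were apart, at 6.94 ± 1.94 FPKM against 37.7 ± 14.3 FPKM (mean ± SD of 3 libraries). The log2 fold change was -2.38 (standard error 0.33, adjusted p = 0.0828), a 5.2-fold difference that was called with each library left out. Its receptor Ccr10 had a log2 fold change of 0.47 (adjusted p = 0.625).

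Cxcl14 was lower at E18.5 as well. It had 24.4, 19 and 15.3 FPKM at E18.5 against 141, 47.6 and 29.1 at E15.5. The groups did not overlap, but replicate 1 of E15.5 was about 3-fold above the next library. The log2 fold change was -1.59 (standard error 0.54, adjusted p = 0.317). It was called in 3 of the 6 fits that leave out a library and not without replicate 1 of E15.5 (-0.95), replicate 2 of E18.5 or replicate 3 of E18.5.

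**Figure D4:**
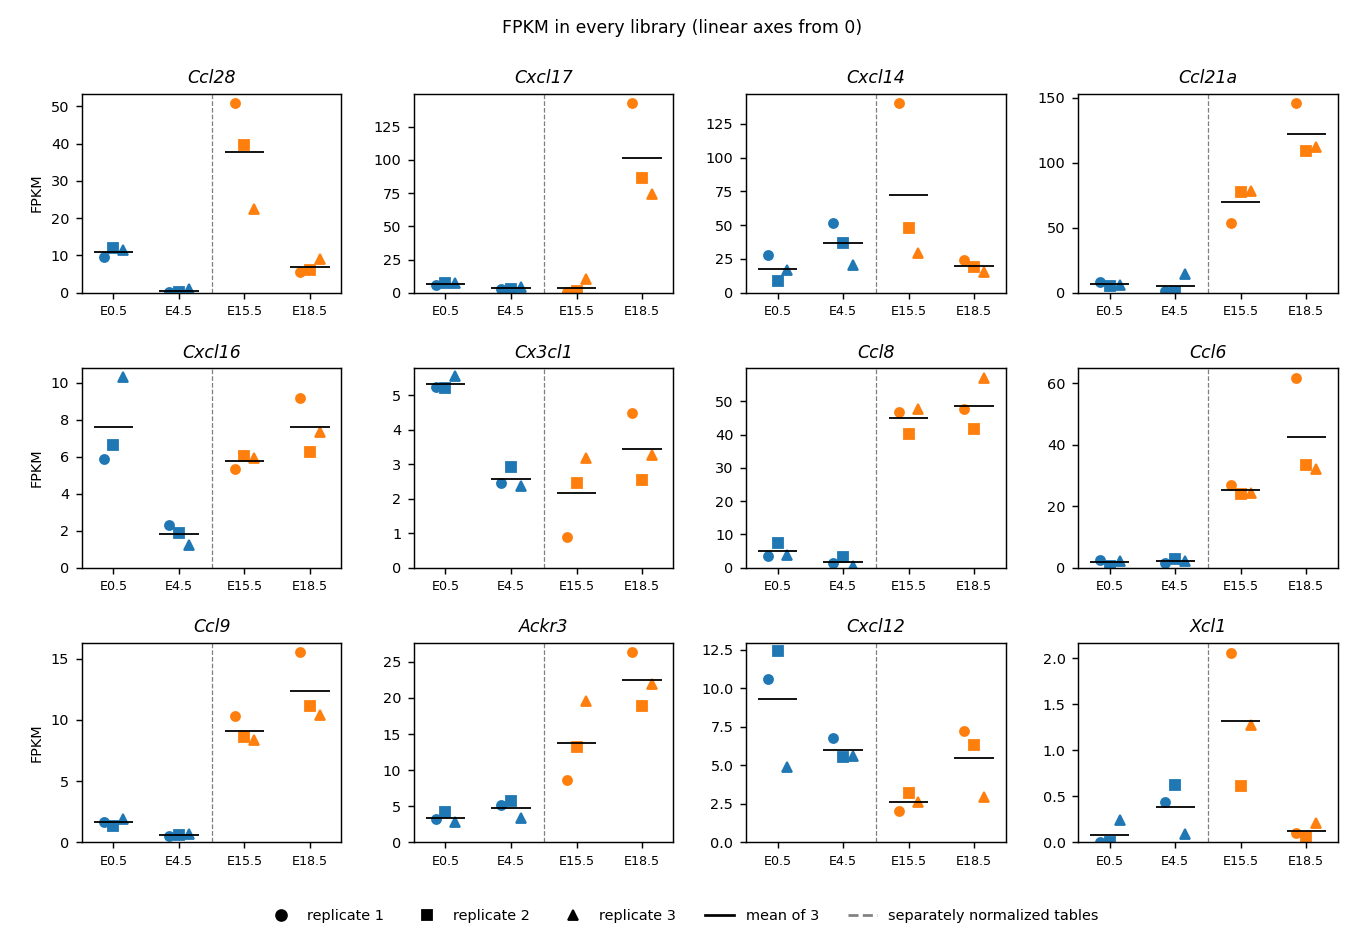
FPKM of 12 members in each library on linear axes from 0, with blue points for the implantation table and orange points for the labor table, the replicates as circle, square and triangle, and black lines at the mean of 3. Ccl28 is high at E0.5 and E15.5 relative to the other day of its stage, Cxcl17 is high at E18.5, and Ccl21a at E4.5 turns on replicate 3 (14.5 FPKM).

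Xcl1, a ligand of NK cells and T cells that attracts the dendritic cells that carry Xcr1, was lower at E18.5. It had 0.10, 0.0639 and 0.21 FPKM at E18.5 against 2.06, 0.614 and 1.28 at E15.5. The groups did not overlap, and the log2 fold change was -2.57 (standard error 0.47, adjusted p = 0.141), called with each library left out. All 7 NK cell markers were called lower at E18.5, none of them was at 0 in any library, and their summed level was 9.45 to 41.6 FPKM at E18.5 and 134 to 383 FPKM at E15.5. The part of the NK cell markers in the Xcl1 value was not tested. Xcr1 itself had a log2 fold change of -0.68 (adjusted p = 0.529).

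The receptor Ccr7 and the ligand Ccl17 were called lower at E18.5, and both lost the call when some single libraries were left out. Ccr7 had 0.112, 0.203 and 0.219 FPKM at E18.5 against 0.636, 0.437 and 0.422 at E15.5. The groups were apart, and the log2 fold change was -1.11 (standard error 0.32, adjusted p = 0.247). It was not called without replicate 1 of E15.5 (-0.95) or replicate 1 of E18.5 (-0.93). Ccl17, a ligand of Ccr4 made by dendritic cells, had 0, 0.104 and 0 FPKM at E18.5 against 1.66, 0.0837 and 0.633 at E15.5. The groups overlapped, the log2 fold change was -2.29 (standard error 0.82, adjusted p = 0.34), and it was called in 2 of the 6 fits that leave out a library. Among the fits that lost it was the one without replicate 1 of E15.5. Ccl22, the other ligand of Ccr4, was just under the fold minimum (log2 fold change -0.94, adjusted p = 0.338).

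Cxcr2, the receptor that neutrophils use for the CXC ligands, was called higher at E18.5. It had 1.62, 2.83 and 0.139 FPKM at E18.5 against 0.191, 0.0646 and 0.0104 at E15.5. Replicate 3 of E18.5 lay within the range of E15.5, and the log2 fold change was 2.61 (standard error 0.93, adjusted p = 0.334), called in 2 of the 6 fits that leave out a library (without replicate 3 of E18.5 and without replicate 1 of E15.5). Its ligands were not called, with log2 fold changes from -1.96 (Cxcl5, adjusted p = 0.477) to 0.03 (Cxcl2). The sum of the neutrophil markers other than Ltf was 1.85 to 4.70 FPKM at E18.5 and 2.23 to 28.1 FPKM at E15.5, where replicate 1 was the highest.

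The abundant ligands that were not called had fitted changes of less than 2-fold. Ccl21a had 146, 109 and 112 FPKM at E18.5 against 53.9, 77.4 and 78.2 at E15.5, the highest level of any member at this stage in 5 of the 6 libraries. Every E18.5 value was above every E15.5 value, at a fitted log2 change of 0.82 (standard error 0.21, adjusted p = 0.207). Its copy Ccl21b had 29.9, 23.8 and 23.6 FPKM at E18.5 against 12.9, 21.4 and 18.1 at E15.5, with groups that did not overlap and the log2 fold change at 0.58 (standard error 0.21, adjusted p = 0.339). Ccl6, a mouse ligand of Ccr1, had 61.8, 33.2 and 32.1 FPKM at E18.5 against 27, 24 and 24.2 at E15.5. Its groups were apart, at a fitted log2 difference of 0.69 (standard error 0.26, adjusted p = 0.362). Ccl9 had 15.495, 11.1 and 10.4 FPKM at E18.5 against 10.3, 8.63 and 8.38 at E15.5, with a fitted log2 change of 0.42 (standard error 0.18, adjusted p = 0.423). Cxcl16 had 9.21, 6.25 and 7.33 FPKM at E18.5 against 5.32, 6.03 and 5.94 at E15.5, with a fitted log2 change of 0.38 (standard error 0.17, adjusted p = 0.431).

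The ligands of the cluster of Ccl2 were not called at the labor stage. Ccl8 had 47.5, 41.5 and 57 FPKM at E18.5 against 46.8, 40.3 and 47.8 at E15.5, groups that overlapped, with a fitted log2 change of 0.11 (standard error 0.16, adjusted p = 0.811). Ccl2 had 4.75, 4.02 and 6.77 FPKM at E18.5 against 6.22, 4.79 and 3.65 at E15.5, with a fitted log2 change of 0.08 (standard error 0.26, adjusted p = 0.921). Of the 5 tested members of the cluster 0 were called by limma, Ccl11 alone had an unadjusted p under 0.05 (log2 fold change 0.65, adjusted p = 0.38), and the median log2 fold change was 0.08.

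Of the 16 receptors tested, 1 was called higher at E18.5 (Cxcr2) and 1 lower (Ccr7), and 11 fold changes were below 0. All 5 markers shared by leukocytes were below 0 too, with a median log2 fold change of -0.9 and 1 of them (Coro1a) called lower, and their sums were 29.8 to 34.4 FPKM at E18.5 and 43.6 to 75.8 FPKM at E15.5. Their part in the receptor values was not tested. Ccr2, the receptor of inflammatory monocytes, and Cx3cr1, a receptor of monocytes and macrophages, were below the fold minimum with groups that did not overlap: their log2 fold changes were -0.62 (adjusted p = 0.329) and -0.63 (adjusted p = 0.291). Ackr3 was the most abundant receptor, with 26.4, 18.9 and 22 FPKM at E18.5 against 8.59, 13.3 and 19.6 at E15.5. Replicate 3 of E15.5 lay within the E18.5 range, and the log2 fold change was 0.76 (standard error 0.30, adjusted p = 0.378). Its ligand Cxcl12, on a row merged with D030044L04Rik, had 0.97 (adjusted p = 0.342).

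The 34 tested members of this stage that were neither called nor at 5 FPKM had means of 0.113 to 4.57 FPKM and log2 fold changes of -1.96 to 1.03. The largest of the negative ones was that of Cxcl5, whose E15.5 values were 5.84, 1.06 and 0.522 FPKM and whose E18.5 values were 0.0528, 0.341 and 0.975 FPKM. With single libraries left out, Cxcl5 ran from -2.66 to -1.03. It was called in 2 of those fits, without replicate 3 of E18.5 and without replicate 3 of E15.5. Among the interferon-inducible ligands, Cxcl9 had 0.586, 0.474 and 0.46 FPKM at E18.5 against 0.972, 1.07 and 0.943 at E15.5, with a fitted log2 change of -0.86 (standard error 0.22, adjusted p = 0.206). Below the filter were 9 members (Ccl1, Cxcl3, Cxcl11, Ccr3, Ccr4, Ccr6, Ccr8, Cxcr1 and Cxcr5).

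Other marker lists also moved with the day at this stage. Of 5 epithelial markers, 3 (Krt8, Krt19 and Cdh1) were called higher at E18.5, with sums of 593 to 819 FPKM at E18.5 and 197 to 411 FPKM at E15.5. Of 4 endothelial markers 1 (Cdh5) was called lower, with sums of 58.8 to 89.3 FPKM and 130 to 159 FPKM. Of 5 mast cell markers 3 (Tpsb2, Cpa3 and Mcpt4) were called higher, with sums of 16.2 to 26 FPKM and 7.0 to 14.3 FPKM. Of 6 trophoblast markers 2 (Psg21 and the row of Tpbpa) were called higher, with sums of 53.2 to 110 FPKM and 11.1 to 37.0 FPKM. Of 6 eosinophil markers 4 were tested, Alox15 was called higher and Ear1 and Ear2 lower, and the sums were 11.2 to 12.6 FPKM and 15 to 85.1 FPKM. For 10 macrophage and monocyte markers it was 432 to 561 FPKM and 432 to 518 FPKM, with 0 called by limma. None of the 6 dendritic cell markers was called, 5 of them had a negative log2 fold change, and their sums were 4.39 to 5.54 FPKM and 5.62 to 7.54 FPKM. Of 6 T cell markers 3 were tested and 0 called, with sums of 0.824 to 1.05 FPKM and 1.07 to 1.49 FPKM. The sums of both lists did not overlap between the days. Their part in the chemokine values was not tested.

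The effect of the day was then compared between the stages, as the log2 fold change E0.5 over E4.5 minus that of E18.5 over E15.5, with limma on log2(FPKM + 0.1) over all 12 libraries. Among the 42 members that were tested in both tables, 16 differed by the criterion, 13 with the higher value at the implantation stage and 3 with the lower, where 11.9% of 22056 row pairs were called. The median difference was 0.75 over the members and -0.13 over all pairs. Past the adjusted p were 3: Ccl28, with a difference of 6.8 (standard error 0.60, adjusted p = 0.000421), the Ackr1 row with 1.68 (standard error 0.37, adjusted p = 0.0362), and Cxcl16 with 1.64 (standard error 0.36, adjusted p = 0.0402), where 2.57% of all pairs were. Each of these was called with each of the 12 libraries left out. With a pseudocount of 1, Ccl28 and Cxcl16 were still called, while the Ackr1 row fell to 0.84 and was not. Without replicate 1 of E15.5 the count was 10, where 11.1% of all pairs were called, and without replicate 3 of E4.5 it was 14, where 14.2% were, with the calls of Ccr2, Cxcr3 and Ccl8 lost. For Cxcl17 the difference was -4.8 (standard error 1.23, adjusted p = 0.0639), and its implantation row holds Lipe as well. For Cxcl14, Xcl1 and Cx3cl1, which were called at the labor stage or the implantation stage alone, the differences between the stages were 0.49, 1.1 and 0.26. None of these differences was called (standard errors 0.81, 0.91 and 0.52).

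**Figure D5:**
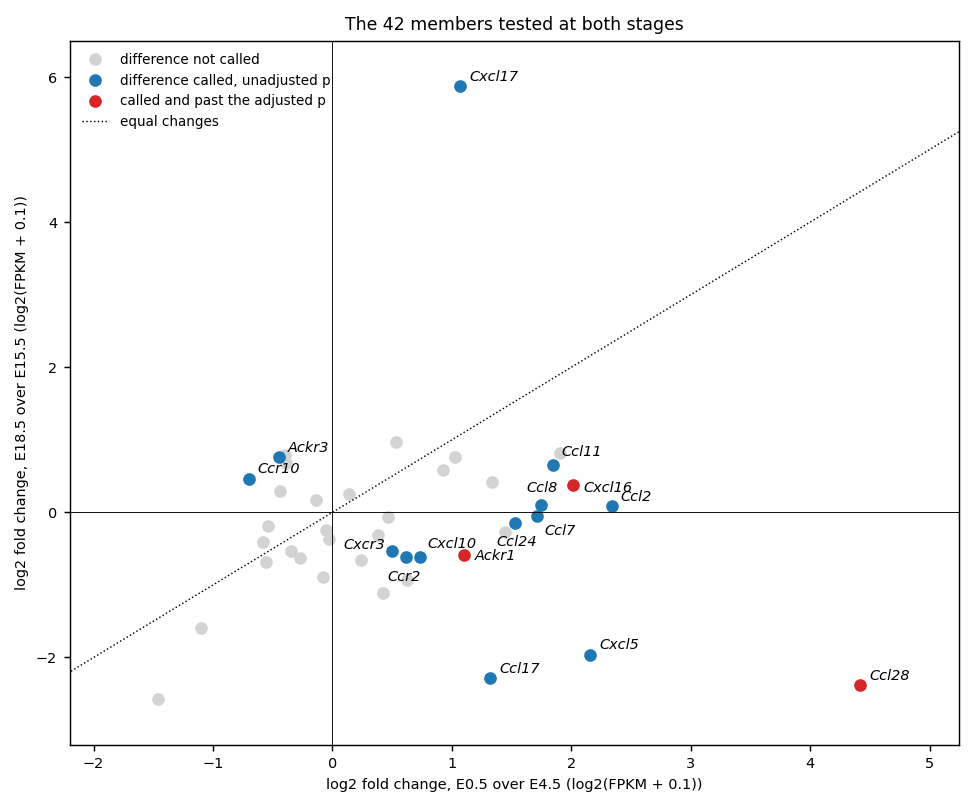
Log2 fold change of 42 members at the implantation stage (horizontal axis, E0.5 over E4.5) and at the labor stage (vertical axis, E18.5 over E15.5), both from limma on log2(FPKM + 0.1), with the dotted line where the changes are equal. The 16 members whose difference was called are named, and the 3 past the adjusted p are red. Ccl28 lies far to the lower right, and Cxcl17 is at the top, above the dotted line.

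The other genes of chemokine signalling were counted from lists of the platelet chemokines, G protein subunits, desensitizing kinases and arrestins, effectors, processing enzymes and inducers. Of 56 tested at the implantation stage 6 were called higher at E0.5 and 1 lower, with a median log2 fold change of 0.10, where 12.2% of all tested rows were called (6.37% higher and 5.82% lower). Higher were the effectors Pik3r5 (2.05), a subunit of the phosphoinositide 3-kinase that chemokine receptors switch on, and Lyn (1.40), a Src-family kinase with an adjusted p of 0.0351. Mmp9 (2.24), a protease that trims chemokines, Pf4 (2.12), the platelet chemokine Cxcl4, and the cytokines Csf3 (1.74) and Il33 (1.26) were higher too. The lower one was Gnai1 (-1.84), an inhibitory G protein subunit. At the labor stage 0 of 57 were higher and 1 was lower, the Src-family kinase Fgr (-1.11, adjusted p = 0.194), with a median of 0.02, where 6.05% of all tested rows were called (3.11% higher and 2.93% lower).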

How the data were processed

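The authors deposited 1 gene table per stage, from RNA-seq of 12 uteri. Per the labels, poly(A) RNA was sequenced, and the submitters' processing notes name HISAT2 2.0, StringTie 1.3.0, Bowtie 0.12.2, mm8 and mm10. The methods of the study name ribosomal RNA depletion, Cutadapt, Bowtie2, Tophat2, StringTie and Ballgown instead. Both tables hold FPKM computed by the authors for each stage on its own, and the implantation table also holds counts that the authors deposited as whole numbers. FPKM of 0.0001 there stand for 0 and were set to 0. Between 1.02% and 1.86% of the counts fell on assembled loci without a gene name, which entered the fits and the library sizes like any other row. Deposited fold changes and p-values were not used.

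A row entered a test when it averaged 0.1 FPKM or more across its 6 libraries: 59732 rows with edgeR 4.0.16 (TMM scaling, quasi-likelihood F-test) and 30928 rows with limma 3.58.1 (intensity trend, log2(FPKM + 0.1)), under R 4.3.3. Stages were compared with limma over pairs of rows that share Ensembl transcripts. All tests are two-sided. Because 3 mice against 3 cannot reach an exact permutation p below 0.1, no such test was made. The p-values weigh a difference against the spread between these mice, which both methods estimate with the help of all tested rows.

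Values in every library are given for members that meet the criterion or average at least 5 FPKM. Other lists are given by counts or by summed levels. The values of 1 member are not reported here, though it is in the counts and medians over all members. The members and lists were chosen with earlier results of these data known, and Ccl21d was put in its role group after the table was seen. The alternatives were other filters, scalings and pseudocounts, DESeq2 1.42.0, the replicate number as a block, and the omission of single libraries. Tables and plots used Python 3.11.15, pandas 2.3.3, NumPy 2.4.6 and matplotlib 3.10.9.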

Additional observations from a re-analysis of the deposited data

Results flagged for a closer look

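The effect of the day differed between the stages for 16 of 42 members by a test of the difference itself (limma on log2(FPKM + 0.1), unadjusted p under 0.05 with an absolute difference of at least 1, where 11.9% of all pairs of rows met it), given here as the log2 fold change of E0.5 over E4.5 minus that of E18.5 over E15.5. The 3 past the adjusted p were Ccl28 (6.8), the row of Ackr1 and Cadm3 (1.68) and Cxcl16 (1.64).

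Among the other ligands with a higher value at the implantation stage were Cxcl5 (4.12), Ccl17 (3.61), Ccl2 (2.26), Ccl7 (1.76), Ccl24 (1.67), Ccl8 (1.64), Cxcl10 (1.34) and Ccl11 (1.2). Of these Ccl2, Ccl7, Ccl8 and Ccl11 lie in 1 cluster on chromosome 11. The receptors Ccr2 (1.23) and Cxcr3 (1.03) went the same way. The difference was negative for Cxcl17 (-4.8), whose implantation row also holds Lipe, for Ackr3 (-1.21) and for Ccr10 (-1.17). Without replicate 3 of E4.5, which held the ovary markers, the call was lost for Ccr2, Cxcr3 and Ccl8. Without replicate 1 of E15.5, it was lost for Ccl17, Cxcr3, Ccl11, Ccl8, Ccr10 and Ackr3. Groups of 3 libraries are too small for the test for a single outlying sample, which was not made.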

How the results depend on the processing

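At the implantation stage the count of members called was 11 (12.2% of all rows), and it was 2 with the adjusted p (1.2%). It was 6 with a mean of at least 1 FPKM (12% of all rows) and 10 to 15 with each library left out (10% to 14.1%). The count past the adjusted p, 2, became 4 with a mean of at least 1 FPKM, 4 with upper quartile scaling, 11 by DESeq2, and 0 to 5 with each library left out, while the share of all rows past it, 1.2%, became 2.86%, 1.36%, 8.06% and 0 to 5.35%. At the labor stage the count was 7 (6.05% of all rows), and it was 0 with the adjusted p (0.0259%) and 19 without a fold change minimum (12.2%). It was 3 with a mean of at least 1 FPKM (4.17% of all rows), 4 with a pseudocount of 1 (1.66%), and 4 to 8 with each library left out (4.97% to 7.74%). In each of these fits 0 members passed the adjusted p by limma. For the difference between the stages the count was 16 (11.9% of all pairs), and it was 6 with a pseudocount of 1 (5.35%) and 10 to 17 with each library left out (10.8% to 14.2%). The count past the adjusted p, 3, became 1 to 7. The share of all pairs past it, 2.57%, became 0.875% to 5.32% with each library left out. The counts past the adjusted p under these settings, like the neutrophil sum without Ltf, were computed after the data had been seen.

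No source says that replicate numbers pair the mice. The deviations of same-numbered libraries from their group means correlated at -0.06 to 0.02 (implantation) and -0.05 to 0.02 (labor), and 0 of 6 and 2 of 6 libraries were closest to the library of their own number. With the replicate block, 13, 6 and 15 members were called at the implantation stage, at the labor stage and for the difference, and 0, 0 and 1 passed the adjusted p. Of all rows or pairs, 10.4%, 5.99% and 11.6% were called with it, and 0%, 0.00647% and 0.322% passed the adjusted p.

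With single libraries left out, log2 fold changes ran from -0.19 to 3.36 for Ccl21a at the implantation stage (-0.14 without replicate 1 of E4.5 and -0.19 without replicate 2), from -0.12 to 0.27 for Ccl2 at the labor stage (-0.12 without replicate 3 of E18.5 and -0.11 without replicate 3 of E15.5), and from -0.012 to 0.22 for Ccl8 at the labor stage (-0.012 without replicate 3 of E18.5). The ovary markers ran from -10.03 to 0.41 (Lhcgr) and from -5.25 to 0.36 (Star), above 0 only without replicate 3 of E4.5. The direction of other members also turned with a library left out, among them Cx3cr1, Cxcr6, Ccl4, Ccl5, Ccl6, Cxcl1, Ccl22, Ccl25, Ccl27b and Ccr9 at the implantation stage and Cxcr4, Cxcr6, Ackr4, Ccl4, Ccl7, Ccl20, Ccl24, Ccl27b, Cxcl1 and Cxcl2 at the labor stage. None of the members given here was called at that stage with all libraries, while both ovary markers were. Scaling moved the median of all rows by less than 0.1. Low members rest on few counts, and the depth of the labor libraries is unknown.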

Other observations

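Some rows carry a member's name without an Ensembl transcript and were not counted as members: there were 13 at the implantation stage and 6 in labor. One of them lies inside the Ccl28 locus on the opposite strand (chromosome 13, 119634612 to 119640616, GRCm38). It had 1.64, 2.77 and 2.49 FPKM at E0.5 against 0.0655, 0.0275 and 0.118 at E4.5, 5.03 on the log2 scale (standard error 0.57, adjusted p = 0.0233 by edgeR). A row named for Ccl28 in the labor table had 0.302, 0.26 and 0.539 FPKM at E18.5 against 2.75, 2.68 and 1.31 at E15.5, -2.3 on the log2 scale (standard error 0.37, adjusted p = 0.11 by limma). The first met the criterion in the direction of the Ccl28 row of its table, and so did the second. Whether their reads come from Ccl28 was not tested, and the strand setting of the counting is not given in the sources used here.

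The share of a library's ligand FPKM held by its most abundant ligand was 15.3% to 29.2% at E0.5 (Cxcl14, and Cxcl12 in replicate 2), 33.6% to 66.6% at E4.5 (Cxcl14), 26.2% to 35.6% at E15.5 (Ccl21a, and Cxcl14 in replicate 1) and 28.3% to 30% at E18.5 (Ccl21a).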
